A study of Mus musculus with 6 samples.

Results

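Cd163, Timd4, Vsig4, Cd209f, Folr2 and Lyve1 encode surface receptors by which tissue macrophages take up or bind material from blood and tissue. They are 6 of 16519 genes in a bulk RNA sequencing table of mouse BMDMs, macrophages obtained by culturing bone marrow. The first 4 were picked on their lower values in KO than in WT libraries, so their differences between genotypes are a description. Where the fit across all genes calls any of them, that call rests on the values that chose them and is no independent evidence. Folr2 and Lyve1 are further receptors of resident macrophages, added for comparison. The KO libraries, 3 in number, came from Trmt61a f/f LysmCre mice, and the 3 WT libraries from Trmt61a f/f mice, so floxed Trmt61a alleles are shared by all. Trmt61a encodes the catalytic subunit of the methyltransferase that makes N1-methyladenosine in tRNA. LysM-Cre is expressed from the lysozyme gene Lyz2 in myeloid cells, so deletion is limited to that lineage. The Cre is present in KO only, and its effect cannot be told apart from that of losing Trmt61a. Age, sex, any stimulus and whether each library stands for its own mouse are not stated in the labels, so the spread between libraries may be technical.

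Macrophages resident in tissues carry scavenging receptors by which they are often told apart from newly recruited cells. CD163 takes up haemoglobin bound to haptoglobin, after which haem is broken down by haem oxygenase and the iron is stored or exported. TIM-4, the product of Timd4, binds phosphatidylserine on dying cells, and CRIg, the product of Vsig4, binds the complement fragment C3b on particles in the bloodstream. Cd209f belongs to a cluster of C-type lectin genes related to human DC-SIGN. Folate receptor beta, the product of Folr2, binds folate, and LYVE1 binds hyaluronan on lymphatic endothelium and on macrophages along vessels.

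RefSeq promoter windows of GRCm38.p6, the assembly of mm10, were found for 5 of the 6 genes, all but Lyve1. Each window runs from 250 bases before to 50 bases after a transcript start. They are shown so that the start regions of the 4 transcripts with lower values, which lie on different chromosomes, can be set beside that of Folr2. Capitals mark every match, on either strand, to 6 words: GGAAGT, a core bound by PU.1 and other ETS factors; GGAA and GAAA separated by 2 bases, a composite ETS-IRF element; AGAACA, the hexamer of glucocorticoid receptor sites; TGANTCA, the AP-1 element; TGCTGAC, part of MAF elements; and TATAAA, the TATA box. Sequences are written 5′ to 3′ on the strand of the gene.
Cd163, chr6:124304401-124304700, plus strand: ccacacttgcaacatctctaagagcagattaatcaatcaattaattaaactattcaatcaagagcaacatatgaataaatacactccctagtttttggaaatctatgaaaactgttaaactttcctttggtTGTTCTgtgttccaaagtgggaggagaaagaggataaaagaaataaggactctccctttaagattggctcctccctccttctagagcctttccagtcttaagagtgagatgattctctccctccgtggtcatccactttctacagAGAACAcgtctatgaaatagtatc
Timd4, chr11:46810549-46810848, plus strand: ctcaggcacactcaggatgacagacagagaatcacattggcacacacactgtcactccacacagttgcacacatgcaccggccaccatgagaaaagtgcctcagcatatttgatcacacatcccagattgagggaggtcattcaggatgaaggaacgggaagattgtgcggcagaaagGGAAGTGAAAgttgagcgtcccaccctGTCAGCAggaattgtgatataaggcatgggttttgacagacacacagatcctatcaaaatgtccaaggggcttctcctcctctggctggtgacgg
Vsig4, chrX:96293389-96293688, minus strand: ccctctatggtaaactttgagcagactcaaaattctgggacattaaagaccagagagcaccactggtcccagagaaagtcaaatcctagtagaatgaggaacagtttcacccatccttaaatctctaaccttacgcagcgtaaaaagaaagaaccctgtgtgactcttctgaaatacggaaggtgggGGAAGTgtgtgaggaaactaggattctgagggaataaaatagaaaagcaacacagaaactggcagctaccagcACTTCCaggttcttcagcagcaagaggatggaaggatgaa
Cd209f, chr8:4105715-4106014, minus strand: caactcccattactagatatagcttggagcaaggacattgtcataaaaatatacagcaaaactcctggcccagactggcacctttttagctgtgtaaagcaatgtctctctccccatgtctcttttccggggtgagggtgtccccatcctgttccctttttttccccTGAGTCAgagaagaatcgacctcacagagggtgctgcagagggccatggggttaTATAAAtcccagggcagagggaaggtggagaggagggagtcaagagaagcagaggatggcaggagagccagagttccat
Folr2, chr7:101857141-101857440, minus strand: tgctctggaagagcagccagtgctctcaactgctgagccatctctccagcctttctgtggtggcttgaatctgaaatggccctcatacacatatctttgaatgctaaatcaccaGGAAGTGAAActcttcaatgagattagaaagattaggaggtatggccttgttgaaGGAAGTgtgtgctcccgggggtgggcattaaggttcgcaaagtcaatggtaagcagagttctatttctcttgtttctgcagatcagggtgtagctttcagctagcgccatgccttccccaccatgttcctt

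No word was found in all 4 windows of the transcripts with lower values. The Timd4 window held the composite ETS-IRF word from base -72 relative to the start, overlapping GGAAGT, and the reverse complement of TGCTGAC from base -45. The Folr2 window also held the composite word, from base -136, again overlapping GGAAGT, with another GGAAGT at -81. This word occurs in 2.72% of 32851 mouse promoter windows of this length and GGAAGT in 23.8%. The Vsig4 window held GGAAGT at -63 and, on the opposite strand, at 11. The Cd163 window held AGAACA at 27 and, on the opposite strand, at -119, a word found in 19.0% of windows. The Cd209f window held TGANTCA at -83 and TATAAA at -29, words found in 7.81% and 13.6% of windows. TGCTGAC occurs in 4.67% of windows. A second RefSeq start of Folr2 lies inside the gene, and its window, not shown, held TGANTCA and AGAACA. Matches of letters are a description and do not show binding.

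The libraries held between 37899665 and 40710502 gene counts in KO and between 37021855 and 41033179 in WT. Trmt61a, the check of the labels, had 20, 30 and 22 counts in KO libraries 1 to 3, against 183, 155 and 208 in WT libraries 1 to 3. The KO level was 13.1% of the WT level. Levels are CPM, the gene counts scaled to a common library total with TMM factors, which correct for library composition. Macrophage identity genes were high in both genotypes. Their mean log2 level stayed within 0.03 of the genotype mean in every library, and Apoe and Lyz2 led them, at 13540 and 9503 CPM in KO, against 13402 and 18874 CPM in WT. Lyz2, the gene from which the Cre is expressed in KO, was the only called gene of the 18. In a bulk library, fewer cells that express a receptor and less RNA per cell cannot be told apart.

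Cd163 was the receptor with the most even values within each genotype. Its gene (Entrez Gene 93671) spans bases 124304636 to 124330529 of chromosome 6 in mm10. Reads over its exons numbered 318, 334 and 378 in KO libraries 1 to 3, against 824, 1162 and 1255 in WT libraries 1 to 3. These correspond to 8.43, 8.41 and 9.25 CPM in KO and 22.3, 29.2 and 30.6 CPM in WT. The highest KO library stood at 41.4% of the lowest WT library, so the genotypes did not overlap. The highest value was 1.10 times the lowest among KO libraries and 1.37 times among WT libraries. Its log2 fold change, with standard error 0.13, was -1.65, or 3.15-fold lower in KO. The lncRNA gene Gm52877 overlaps Cd163, and whether reads were counted by strand is unknown here, so its reads cannot be separated from those of Cd163. Transcripts of other genes shared 0.109% of the 50-base words of Cd163.

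Timd4, the phosphatidylserine receptor gene (Entrez Gene 276891, chromosome 11, 46810786 to 46844333), had low counts. There were 12, 19 and 22 counts in KO libraries 1 to 3, against 42, 100 and 150 in WT libraries 1 to 3. In CPM these are 0.318, 0.478 and 0.539 in KO and 1.14, 2.51 and 3.65 in WT. All KO libraries lay below all WT libraries, and the WT libraries differed 3.21-fold among themselves. Counting error did not span that difference: the exact 95% Poisson interval was 127 to 176 counts in WT 3 and 30.3 to 56.8 in WT 1. Its log2 fold change, with standard error 0.47, was -2.44, a 95% interval from -3.48 to -1.40, and the KO mean was 18.3% of the WT mean.

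Vsig4, the complement receptor gene (Entrez Gene 278180, chromosome X, 96247201 to 96293438), had 15, 30 and 34 counts in KO libraries 1 to 3, against 55, 70 and 145 in WT libraries 1 to 3. These are 0.398, 0.755 and 0.832 CPM in KO and 1.49, 1.76 and 3.53 CPM in WT. The genotypes did not overlap, although WT 3 stood at 2.37 times WT 1 and KO 3 at 2.09 times KO 1. Its log2 fold change, with standard error 0.44, was -1.77, a 95% interval from -2.74 to -0.79. Neither Timd4 nor Vsig4 is overlapped by another RefSeq gene, and neither shared a 50-base word with transcripts of other genes.

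Cd209f, the lectin gene (Entrez Gene 69142, chromosome 8, 4102784 to 4105838), was near the lower limit of what these libraries measure. It had 6, 9 and 9 counts in KO libraries 1 to 3, against 20, 16 and 34 in WT libraries 1 to 3. It passed the low-count filter only through its WT libraries, so it could only have been tested as a gene lower in KO. The CPM values were 0.159, 0.227 and 0.220 in KO and 0.542, 0.402 and 0.828 in WT, with no overlap. Its log2 fold change, with standard error 0.56, was -1.53, a 95% interval from -2.75 to -0.31. Summed over libraries, 24 counts (95% Poisson interval 15.4 to 35.7) stood in KO and 70 (54.6 to 88.4) in WT. Of the 50-base words of Cd209f, 29.8% also occur in transcripts of its paralog Cd209g, so that reads of the pair may be split or dropped. Cd209g itself had 0, 0 and 3 counts in KO libraries 1 to 3, against 6, 4 and 19 in WT libraries 1 to 3, and was not tested. Cd209a, the nearest tested paralog, had 18, 25 and 19 counts in KO libraries 1 to 3, against 6, 29 and 22 in WT libraries 1 to 3. Its genotypes overlapped.

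Folr2, the folate receptor gene (Entrez Gene 14276, chromosome 7, 101839988 to 101857190), was the most abundant of the 6 transcripts. It stood at 119, 170 and 201 CPM in KO libraries 1 to 3, against 154, 113 and 181 CPM in WT libraries 1 to 3. The genotypes overlapped over nearly their whole range. Its log2 fold change, with standard error 0.26, was 0.13, and its 95% interval ran from -0.54 to 0.80. The lncRNA gene Gm10602 overlaps Folr2 and shares 52.6% of its 50-base words.

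Lyve1, the hyaluronan receptor gene (Entrez Gene 114332, chromosome 7, 110850607 to 110862953), was not detectable beyond stray reads. It had 3, 0 and 1 counts in KO libraries 1 to 3, against 0, 1 and 8 in WT libraries 1 to 3. In these libraries 3 counts correspond to between 0.0734 and 0.0795 CPM in KO and between 0.0730 and 0.0813 CPM in WT, and WT 3 alone was above that, at 0.195 CPM. Lyve1 did not pass the low-count filter, and without the filter its log2 fold change was -1.05 with a 95% interval from -4.10 to 1.999. Prox1, the transcription factor gene that defines lymphatic endothelium, had 3, 2 and 9 counts in KO libraries 1 to 3, against 24, 2 and 9 in WT libraries 1 to 3. Summed over 11 measured endothelial markers, levels ran from 22.9 to 23.7 CPM in KO and from 23.8 to 31.98 CPM in WT, with Pecam1 and Pdpn in the lead. Poisson intervals and the floors of 3 counts given here cover counting error only. The intervals of log2 fold changes also take in the spread between libraries.

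**Figure D1:**
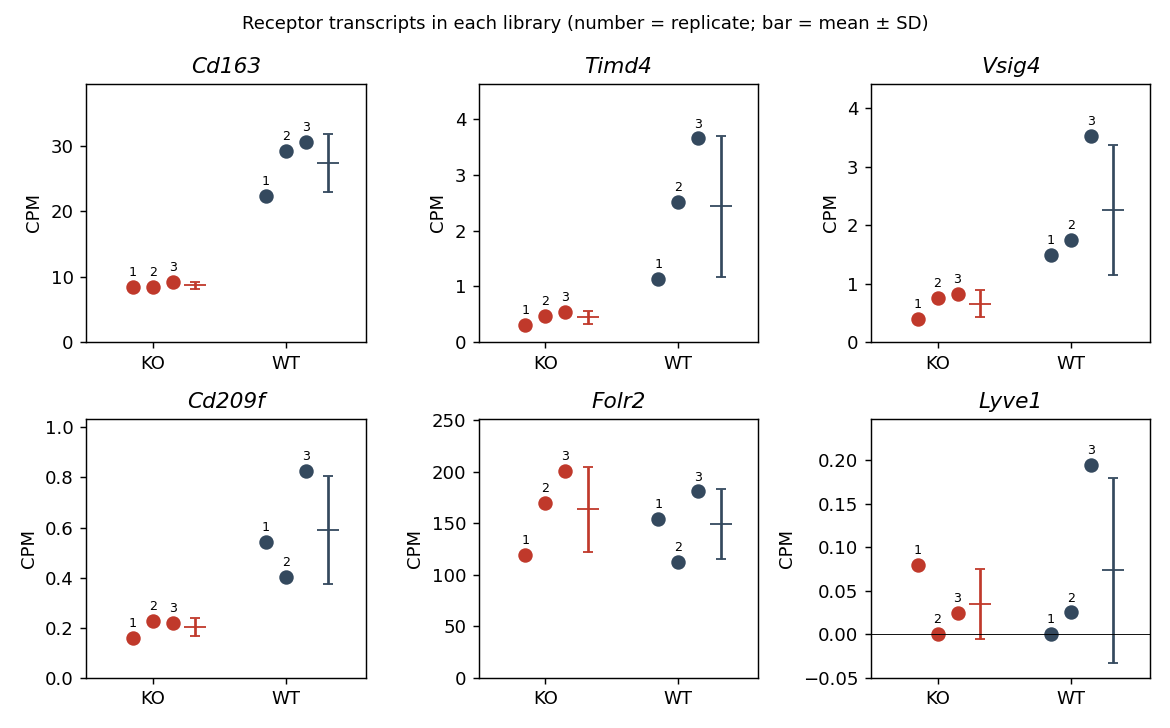
Level of each of the 6 receptor transcripts, in CPM on a linear axis, in 3 KO and 3 WT libraries; points are libraries, numbers are replicates and bars are mean ± SD. Cd163, Timd4, Vsig4 and Cd209f show every KO library below every WT library, while Folr2 and Lyve1 overlap.

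Counts were compared gene by gene with edgeR's quasi-likelihood test, with p-values adjusted by Benjamini-Hochberg over 12605 genes and a threshold of 0.05. Of the 6 receptor genes 5 were tested and 1, Cd163, was called, where 0.0317% of all tested genes were called in either direction and 0.0238% as lower in KO. Timd4, Vsig4 and Cd209f were not called. In 4 of the 5 every KO library lay below every WT library, as did 4.59% of tested genes. Because this same contrast chose the genes, nothing is read from these counts. Of all tested genes 99, or 0.785%, had a log2 fold change of -1 or lower.

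**Figure D2:**
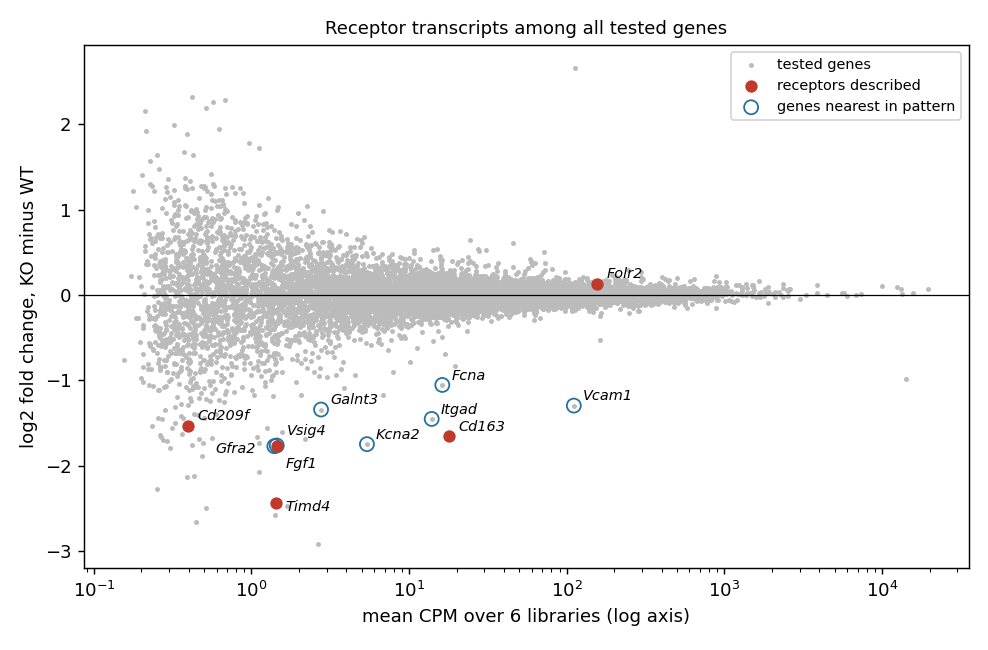
Log2 fold change (KO minus WT) against mean CPM over 6 libraries, on a log axis, for 12605 tested genes in grey; filled red points are the 5 tested receptor genes and open blue circles the genes nearest to them in pattern. Cd163 lies at -1.65 and Folr2, at a higher level, at 0.13; genes at low CPM scatter most.

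Levels of different genes were set side by side per kilobase of exon. In KO the order from high to low was Folr2 (106 ± 26.7 CPM per kb), Cd163 (1.59 ± 0.088), Vsig4 (0.446 ± 0.156), Timd4 (0.205 ± 0.052), Cd209f (0.102 ± 0.019) and Lyve1 (0.012 ± 0.014; SD, n = 3). In WT the order was the same, with Folr2 at 96.6 ± 22.3, Cd163 at 5.01 ± 0.807, Vsig4 at 1.52 ± 0.747, Timd4 at 1.12 ± 0.579, Cd209f at 0.297 ± 0.109 and Lyve1 at 0.025 ± 0.036 CPM per kb (SD, n = 3). Vsig4 and Timd4 overlapped in WT, where Timd4 was at 1.16 and Vsig4 at 1.18 CPM per kb in WT 2. In KO every library of Vsig4, from 0.268 to 0.561 CPM per kb, lay above every library of Timd4, from 0.146 to 0.248.

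Within a genotype, which the choice of genes did not use, the receptors did not all follow the same libraries. KO 1 was the lowest KO library for Timd4, Vsig4, Cd209f and Folr2, with deviations from the KO mean of -0.40, -0.61, -0.26 and -0.42 on the log2 CPM scale. Cd163 deviated by no more than 0.09 in any KO library. WT 3 was the highest WT library for all 5, from 0.17 for Cd163 to 0.73 for Vsig4. The lowest WT library was WT 1 for Cd163, Timd4 and Vsig4, at -0.28, -0.92 and -0.48, and WT 2 for Cd209f and Folr2, at -0.45 and -0.38.

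Markers of other cell types varied across the same libraries. On the mean log2 scale B cell markers deviated most, by -0.87 in KO 1 and 0.85 in WT 3, and markers of mast cells, basophils and eosinophils by -0.67 and 0.74. Their summed levels were low, at 9.15 to 15.03 CPM in KO and 9.02 to 16.6 CPM in WT for B cells, and 26.2 to 54.0 CPM in KO and 28.4 to 65.3 CPM in WT for the granulocyte list. Stromal and osteoclast markers deviated by -0.68 and -0.33 in KO 1 and by 0.11 and 0.41 in WT 3. Neutrophil markers had higher summed levels than these 4 lists. Their 15 genes summed to 2013, 3029 and 3070 CPM in KO libraries 1 to 3, against 2572, 2043 and 3499 CPM in WT libraries 1 to 3. Ngp and S100a9, granule and calprotectin genes, led them. The mean of the neutrophil list deviated by -0.48 in KO 1 and by 0.49 in WT 3, and that of the monocyte list by -0.27 and 0.21. By the neutrophil and monocyte means KO 1 was the lowest KO library and WT 3 the highest WT library. Other lists did not all follow this order. The stromal mean was highest in WT 1, at 0.15. The T cell mean, of 2 tested genes, was highest in KO 1, at 0.05, and lowest in WT 3, at -0.20. KO 1 was also the lowest KO library and WT 3 the highest WT library for Timd4, Vsig4, Cd209f and Folr2. For Timd4, Vsig4 and Cd209f the Poisson intervals of the KO libraries overlapped. Between genotypes the summed ranges overlapped for the neutrophil and monocyte lists. The 14 monocyte markers summed to 1695, 1704 and 1604 CPM in KO libraries 1 to 3, against 1600, 1624 and 1446 CPM in WT libraries 1 to 3. In these sums, led by F13a1 and Chil3, WT 3 was the lowest library and KO 1 was not low. No neutrophil or monocyte marker was at 0 in all libraries, and 0 were called. In edgeR 2 of 14 monocyte and 0 of 15 neutrophil markers had an unadjusted p under 0.05, against 3.1% of all tested genes. Every KO library lay below every WT library for the monocyte markers Cx3cr1 and Nr4a1 and the neutrophil marker Csf3r, against 4.59%. The part of these cells in the spread of the receptors was not tested. KO 1 and WT 2 had the lowest neutrophil sums of their genotypes. With KO 1 and WT 2 left out together, the log2 fold changes of Cd163, Timd4, Vsig4 and Cd209f were -1.58, -2.23, -1.66 and -1.61. Without WT 3 alone they were -1.57, -2.03, -1.29 and -1.21.

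**Figure D3:**
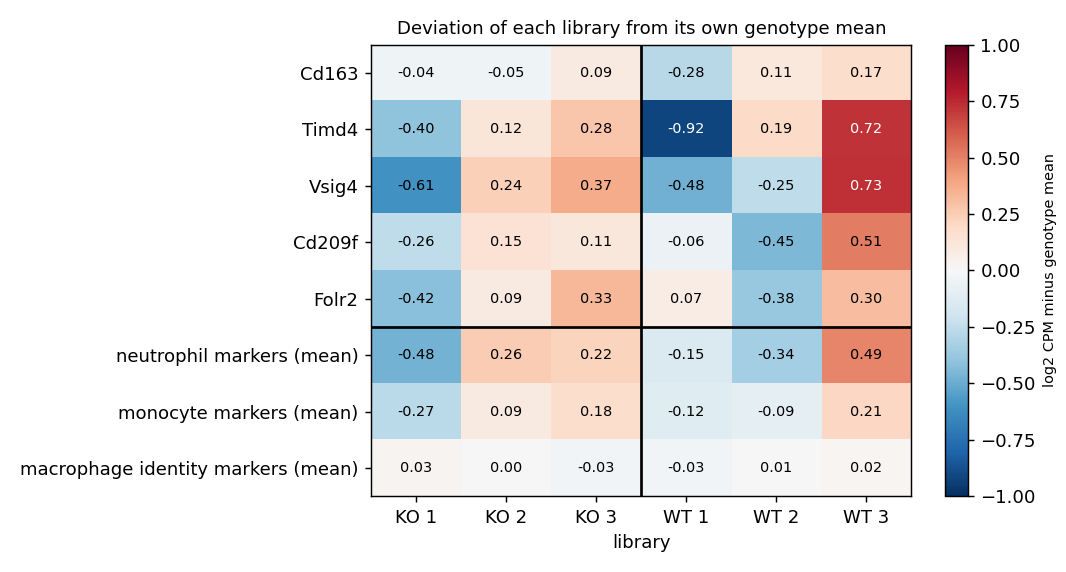
Log2 CPM of each library minus the mean of its own genotype, for 5 receptor genes and for the mean of 3 marker lists; columns are the 3 KO and 3 WT libraries. WT 3 is the highest WT library in each receptor row, and the macrophage identity row stays within 0.03.

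Genes around the receptors on the chromosome were compared next, taking the 3 nearest tested genes on each side in the GRCm38.p6 annotation. None of these 36 neighbours was called in edgeR or DESeq2. In edgeR 4 (Las1l, Prr36, Rnf141 and Sgcd), all higher in KO, had an unadjusted p under 0.05, against 3.1% of all tested genes. Some lay far from the receptor gene, such as Trim41 at 1962 kb from Timd4. Clec4e, the nearest on the lower side of Cd163, lay at -1015 kb. The median log2 fold change of the 36 neighbours was 0.03. Their values ran from -0.80 for Folr1, a folate receptor gene at 0.238 CPM in KO against 0.411 CPM in WT, to 2.15 for Prr36, at 0.349 CPM in KO against 0.0746 CPM in WT. Pex5, a peroxisomal import gene and the closest tested neighbour of Cd163, had 0.12 with a standard error of 0.10. Havcr2, which encodes TIM-3 of the same family as TIM-4, had -0.03 with a standard error of 0.10, at 17.3 CPM in KO against 17.6 CPM in WT. Msn, the cytoskeletal linker gene closest to Vsig4, had 0.00139. The lncRNA genes that overlap Cd163 and Folr2 were not analysed here.

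**Figure D4:**
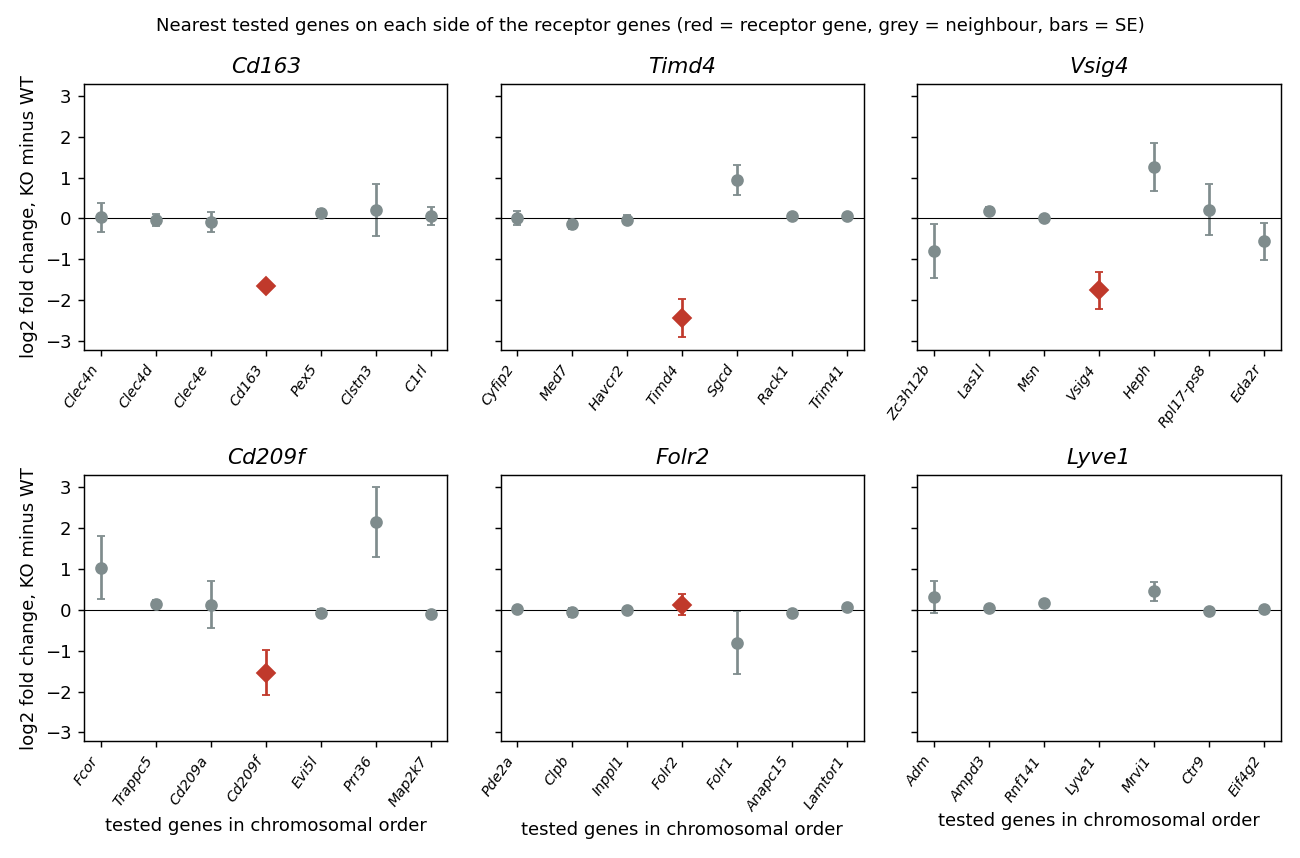
Log2 fold change (KO minus WT, bars are standard errors) of the 3 nearest tested genes on each side of each receptor gene, in chromosomal order; red diamonds are the receptor genes and grey points the neighbours. None of the neighbours was called, and the neighbours of Cd163 lie between -0.09 and 0.21.

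The question of what else distinguishes resident macrophages was put to a list of 45 other genes of such cells, chosen with earlier results of these data known. Of 37 tested, 0 passed in either direction, and the median log2 fold change was -0.02, against 8.37e-05 over all tested genes. Those at an unadjusted p under 0.05 numbered 5, where 3.1% of all tested genes had such a p. In 5 of the 37, Fcna, Spic, Vcam1, Cx3cr1 and Tmem119, every KO library lay below every WT library, against 4.59% of all tested genes, and in 2, Pf4 and Id1, above, against 4.05%. Fcna, which encodes the lectin ficolin A, had 8.24, 12.2 and 11.2 CPM in KO libraries 1 to 3, against 17.9, 19.4 and 28.4 CPM in WT libraries 1 to 3 (log2 fold change -1.06, standard error 0.21, edgeR adjusted p = 0.768). Fcna passed in DESeq2 (adjusted p = 5.45e-05) and, over all 16 alternatives, its adjusted p ran from 5.45e-05 to 0.99984. Vcam1, an adhesion molecule of splenic red pulp macrophages, had 41.7, 80.1 and 70.5 CPM in KO libraries 1 to 3, against 120, 152 and 201 CPM in WT libraries 1 to 3 (log2 fold change -1.30, standard error 0.32). It did not pass in edgeR or DESeq2. Spic, the transcription factor gene needed for red pulp macrophages, had a log2 fold change of -0.49, and Pf4, a chemokine gene, 0.21.

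Some abundant genes of the same list had smaller differences, and others did not; those given here were named after their values were seen. Stab1, a scavenger receptor gene, averaged 4045 ± 751 CPM in KO, against 3725 ± 615 CPM in WT (SD, n = 3), with a 95% interval of the log2 fold change from -0.29 to 0.52. Mrc1, the mannose receptor gene, averaged 1561 ± 215 CPM in KO, against 1505 ± 213 CPM in WT (SD, n = 3), with an interval from -0.23 to 0.34. Siglec1, the sialoadhesin gene, had an interval from -0.23 to 0.24, and Cd5l, whose product is secreted by tissue macrophages, from -0.35 to 0.22. Axl, a receptor kinase gene of apoptotic cell uptake, averaged 133 ± 38.4 CPM in KO, against 192 ± 58.5 CPM in WT (SD, n = 3), with an interval from -1.36 to 0.30. None of these 5 was called in edgeR. Gata6 and Sall1, transcription factor genes that mark single tissues, were nearly absent. Spic, of red pulp macrophages, was not, and averaged 13.4 CPM in KO and 18.9 CPM in WT. Gata6, of peritoneal macrophages, had 0, 0 and 5 counts in KO libraries 1 to 3 and none in WT. Sall1, of microglia, had at most 2 counts in any library, and so did the Kupffer cell lectin gene Clec4f.

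Genes that act before and after CD163 in haemoglobin clearance did not pass. Of 23 tested genes of this list 0 were called in edgeR or DESeq2 and the median was 0.05. An unadjusted p under 0.05 was found for 5 of the 23, against 3.1% of all tested genes. In 4, Hmox2, Hpx, Spic and Tfrc, every KO library lay below every WT library, against 4.59% of all tested genes. In 2, Flvcr1 and Ftl1, every KO library lay above, against 4.05%. Hp and Hpx encode the plasma carriers haptoglobin and haemopexin. Hp averaged 24.6 CPM in KO and 27.1 CPM in WT, and Hpx had 0.345, 0.604 and 0.587 CPM in KO libraries 1 to 3, against 1.65, 2.79 and 0.730 CPM in WT libraries 1 to 3 (log2 fold change -1.74, standard error 0.52, edgeR adjusted p = 0.999949). Hmox1, the haem oxygenase gene, averaged 951 ± 57.6 CPM in KO, against 818 ± 103 CPM in WT (SD, n = 3), and its log2 fold change, 0.22, missed the threshold. Tfrc, the transferrin receptor gene, had -0.21, and Flvcr1, a haem exporter gene, had 0.15. Adam17, whose protease sheds CD163 from the surface, averaged 404 CPM in KO and 410 CPM in WT.

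Factors known to raise CD163 in cultured macrophages were read from a list of 22 genes. The list held genes of glucocorticoid, interleukin-10 and M-CSF signalling, with Il6, its receptor genes and transcription factor genes such as Spi1 and Irf8. None of 21 tested genes was called in edgeR or DESeq2, 0 had an unadjusted p under 0.05, and the median was -0.02. Of the 21, 14 were below 0. Nr3c1, the glucocorticoid receptor gene, averaged 122 CPM in KO and 124 CPM in WT, with a 95% interval of the log2 fold change from -0.18 to 0.15. Its targets Tsc22d3 and Fkbp5 had -0.16 and 0.23. Socs3, induced by interleukin-10, had -0.33 and Il10rb 0.08. Il10 itself averaged 2.40 CPM in KO and 3.03 CPM in WT, with an interval from -0.95 to 0.26. Maf, a transcription factor gene of resident macrophages, had an interval from -0.33 to 0.27.

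Other receptors with the same ligands were listed for each function, and 0 were called in any of these lists in edgeR or DESeq2. The efferocytosis, complement and C-type lectin lists each held 1 gene at an unadjusted p under 0.05, and the scavenger list 0. Of 33 tested efferocytosis genes the median was 0.03; Itgb3 and Mfge8, an integrin and its bridging protein for phosphatidylserine, had 0.33 and 0.17, and Abca1 and Scarb1, lipid transporter genes, had 0.12 and -0.14. The TIM family genes Havcr1 and Timd2 had at most 8 and 1 counts in any library. Of 22 tested complement genes the median was 0.000615, and values ran from -1.44 to 0.23. C5ar1 and C1qa had 0.08 and -0.08, and Cd55 and Cr1l, regulators of complement on cell surfaces, had -0.33 and -0.07. In C2 every KO library lay below every WT library, against 4.59% of all tested genes. In C5ar1 every KO library lay above, against 4.05%. Of 20 tested C-type lectin genes the median was 0.01; Clec7a, Clec12a and Clec1b had -0.19, -0.12 and -0.40, and Clec10a had 0.13. Of 10 tested genes with scavenger receptor cysteine-rich domains or their partners in scavenging the median was 0.13; Msr1, Loxl2 and Loxl3 had 0.19, 0.42 and 0.37, and Ssc4d had -0.19.

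Folate and hyaluronan genes gave similar counts. Of 21 tested folate genes the median was 0.01, 0 were called in edgeR or DESeq2 and 1 had an unadjusted p under 0.05. Aldh1l1, which oxidises formyl tetrahydrofolate, had 11.6, 12.8 and 10.2 CPM in KO libraries 1 to 3, against 17.0, 17.7 and 15.5 CPM in WT libraries 1 to 3 (log2 fold change -0.54, standard error 0.12, edgeR adjusted p = 0.768). Its genotypes did not overlap. Mthfd1l, Mthfd1 and Slc46a1, the last a folate transporter gene, had 0.37, 0.22 and 0.23. Of 17 tested hyaluronan genes the median was 0.02, 0 were called in edgeR or DESeq2 and 0 had an unadjusted p under 0.05. Hyal2, Hyal1, Tlr4 and Stab2 had 0.16, -0.14, 0.06 and -0.14. Cd44, another hyaluronan receptor gene, averaged 377 ± 47.4 CPM in KO, against 365 ± 19.8 CPM in WT (SD, n = 3).

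**Figure D5:**
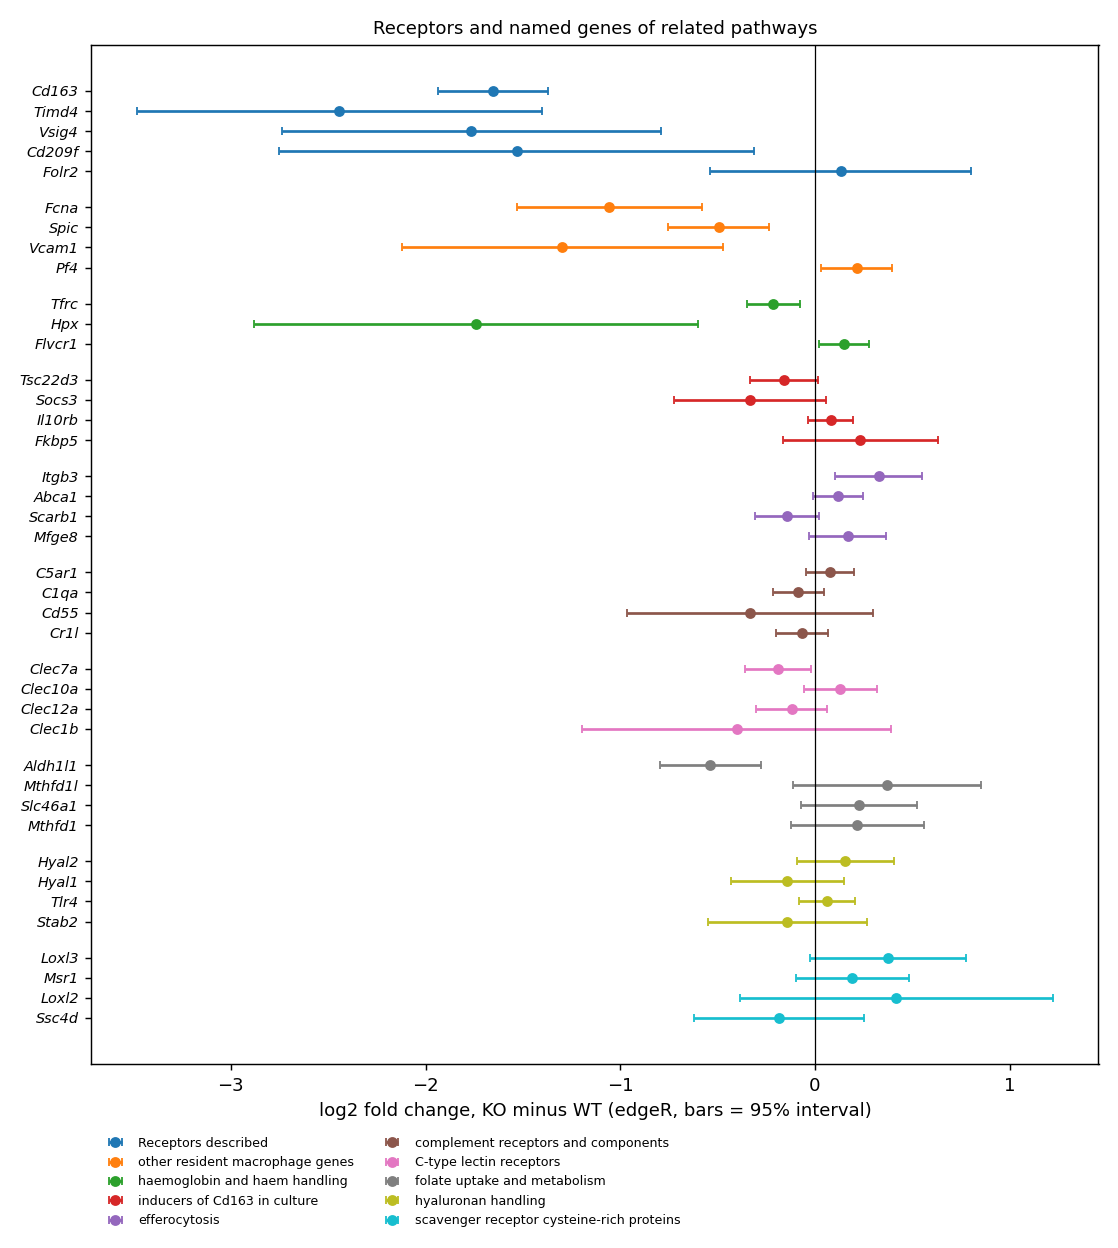
Log2 fold change (KO minus WT) with its 95% interval for the 5 tested receptor genes and for the genes named by rule in 9 related lists, coloured by list. The intervals of Cd163, Timd4, Vsig4 and Cd209f lie below 0, those of Folr2 and most listed genes include 0; intervals are not adjusted for the number of genes, and none of the listed genes was called in edgeR.

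The genes whose pattern lay nearest to Cd163 were found by the root-mean-square difference of log2 CPM, centred on each gene's own mean, over 6 libraries and 11341 genes with at least 1 CPM. Since Cd163 was chosen for a low level in KO, nearness to it mostly selects genes low in KO, and their fold changes are no finding. The 5 nearest were Gfra2, a neurturin receptor gene, at 0.218, Fgf1, a growth factor gene, at 0.326, Vcam1 at 0.336, Kcna2, a potassium channel gene, at 0.356, and Fcna at 0.367 log2 units. Nearest to the mean of Cd163, Timd4, Vsig4 and Cd209f were Fgf1 at 0.163, Gfra2 at 0.201, Itgad at 0.238, Vcam1 at 0.251 and Galnt3, a glycosyltransferase gene, at 0.295. Itgad, an integrin alpha chain gene of splenic macrophages, had 4.72, 9.997 and 7.59 CPM in KO libraries 1 to 3, against 13.4, 19.8 and 27.9 CPM in WT libraries 1 to 3. Gfra2 had 18, 29 and 31 counts in KO libraries 1 to 3, against 55, 105 and 106 in WT libraries 1 to 3. Since nearness was taken over all 6 libraries, the order of the libraries in these genes is also no finding. WT 1 was the lowest WT library in Itgad and Gfra2 but not in Fgf1, which had 1.79, 1.56 and 3.14 CPM in WT libraries 1 to 3.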

How the data were processed

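The authors deposited raw read counts per gene for the 6 libraries, whole numbers with different totals. Per the labels' protocols, RNA was extracted with TRIzol and libraries were made with VAHTS Universal V6 reagents. The tools listed are HISAT2, HTSeq and fastp, with genome mm10, per the submitters' processing notes. Versions, annotation release and strand setting: not given in the sources used here.

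Receptor genes and gene lists were chosen with earlier results of these data known. Counts were fitted with edgeR 4.0.16 in R 4.3.3: TMM factors, filterByExpr (minimum count 10), quasi-likelihood fits (robust, legacy mode) and Benjamini-Hochberg adjustment over 12605 genes. Standard errors were obtained from each log2 fold change and its F value. The steps were tested on simulated data. CPM per kilobase uses the exon union of GENCODE M21, and log2 CPM a prior count of 2. Replicate pairs differed by 11.4 to 34.2 chi-square units per degree of freedom, so each library counted once. Named genes were those past the threshold in each list, then up to 4 of the smallest p with at least 1 CPM, the 2 most abundant of each marker list and the 5 nearest in pattern. Hmox1, Hp, Adam17, Nr3c1, Il10, Maf, Cd44, Stab1, Mrc1, Siglec1, Cd5l, Axl, tissue markers and neighbours were named outside that rule, after their values were seen. The alternatives were other normalizations and filters, DESeq2 1.42.0, limma 3.58.1 voom, a replicate block and leaving out libraries. Genes of a list without a row in the table were not analysed here.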

Additional observations from a re-analysis of the deposited data

How the results depend on the processing

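In edgeR 4 genes were called, 1 higher and 3 lower in KO, including 1 receptor gene, Cd163, which was also called under the 16 alternatives. Cd163 was picked on this contrast, so that its calls are no sign of stability. DESeq2 called 17 genes, of which 2 were receptor genes, Cd163 and Timd4, and 1 was in a list, Fcna. With the replicate block 8 genes were called, 1 of them in a list, again Fcna (edgeR adjusted p = 0.0414). Same-numbered libraries deviated with correlations of 0.03, -0.13 and 0.25, and KO 1 correlated best with WT 2 at 0.30, so the numbers were not taken to pair the libraries. Leaving out each library gave 3 to 5 calls. Over the alternatives log2 fold changes ran over these ranges: Cd163 (-1.78 to -1.57), Timd4 (-2.78 to -2.03), Vsig4 (-1.99 to -1.29) and Cd209f (-1.75 to -1.21; 15 alternatives, since the stricter filter drops it). Their sign was fixed by the choice of genes, whose KO and WT libraries do not overlap. The smallest sizes came without WT 3. Folr2 ran from -0.04 to 0.31. The largest shift of the median of all genes was -0.00577, with upper-quartile factors. Depth limits Lyve1 and Cd209f most. The median of the list of CD163 inducers moved beyond its spread, to between -0.06 and -0.04, without KO 1, without WT 3 and with KO 1 and WT 2 both left out.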

Other observations

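The annotation that the authors deposited with the counts gives each receptor a ligand-binding term, and the other genes that carry the term were read as groups. These groups were taken up after the table was seen. None of their tested genes was called in edgeR or DESeq2, and 2, Mme and Osbpl5 of phosphatidylserine binding, had an unadjusted p under 0.05. For scavenger receptor activity, the term of Cd163, 26 other genes were tested, 14 of them below 0, and the median log2 fold change was -0.01. Stab1 was the most abundant and Prg4, the lubricin gene, had the lowest value, -1.88 with a standard error of 1.27, and WT 1 alone was above 1 CPM. For phosphatidylserine binding, the term of Timd4, 37 genes had a median of 0.04, with 23 above 0, and for mannose binding, the term of Cd209f, 14 genes had a median of 0.00379. For folic acid binding 11 genes had a median of 0.01, and for hyaluronic acid binding 13 genes had 0.03. Complement C3b binding, the term of Vsig4, was carried by 6 other genes, of which 4 were tested, Itgam among them, at 1371 CPM in KO against 1372 CPM in WT.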
